A study of Drosophila melanogaster with 4 samples.

Results

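The transcripts that differed first after inhibition of the chaperone Hsp90 were sought by setting 15 min of radicicol against the solvent DMSO in cultured Drosophila melanogaster S2 cells. All genes with a mean of at least 20 reads over these libraries were measured, which were 7735 of 14869 gene IDs. S2 is a cell line of embryonic origin with the character of haemocytes, the blood cells of the fly. Exponentially growing cells received DMSO (labelled as 0 min) or the Hsp90 inhibitor radicicol in DMSO at 40 µM for 15, 30 or 60 min. Polyadenylated RNA of each condition was made into 1 Illumina TruSeq library, so every condition is a single library. The DMSO cells stand for time 0, so an effect of radicicol and one of the culture or the library cannot be told apart. The 30 and 60 min libraries are used here only to follow the genes that stood apart at 15 min.

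Hsp90 is an abundant chaperone that folds many kinases, receptors and transcription factors. In unstressed cells it is known to hold heat shock factor, the transcription factor of the heat shock genes, in an inactive state, together with other chaperones. At the Hsp70 genes of the fly RNA polymerase II is already engaged and paused just past the start site, held there by the GAGA factor and NELF, and heat shock factor releases it through the kinase P-TEFb. The heat shock genes include chaperones that hold unfolded proteins (the small heat shock proteins), chaperones that refold them with ATP (Hsp70 and Hsp68), and Hsp90 itself, encoded by Hsp83.

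Reads assigned to genes came to 19153476 for DMSO and 28614983 for 15 min of radicicol, with 30859475 and 31028233 for 30 and 60 min. Reads that were not aligned made up 44.1% of the DMSO library and 17.8 to 21.5% of the radicicol libraries, and their part in the differences from DMSO was not tested. All 10 haemocyte markers were measured, with a summed level of 6563 CPM (counts scaled to a common, normalised library size) in DMSO and 7931 CPM at 15 min. Of that gain 612 CPM fell to Col4a1. The median log2 fold of the 10 was 0.22, and -0.04 with the relation to exon length described below removed. Of 6 neuron markers 2 were measured, and the sum of the 6 was 2.92 CPM in DMSO and 6.55 CPM at 15 min, with Syt1 at 0 in both. The list of crystal cell and lamellocyte markers, of which 4 of 6 were measured, summed to 71.4 CPM in DMSO and 64.7 CPM at 15 min. Of these 4, the integrin gene ItgaPS4 was higher by the rule given below, with 20 and 73 counts and a log2 fold of 1.14 (0.41 to 1.93) that was 0.93, short of the rule, with the relation to exon length removed, and the lowest was -0.18. Because each library is a bulk sample, fewer cells with a transcript and less of it per cell cannot be told apart.

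Most transcripts lay close to their DMSO level at 15 min. The median log2 fold of the measured genes was -0.0037, the 5th and 95th percentiles were -0.53 and 0.65, and 84.3% of the genes lay within 0.5 on the log2 scale. No replicate error exists, so no test was made. A gene was called higher or lower when it differed at least 2-fold and the exact 95% counting interval of its fold lay on that side of no difference. The values in parentheses after a log2 fold are this interval, which covers counting error only. By this rule 209 genes were called (2.7% of those measured), of which 94 were higher (1.22%) and 115 were lower (1.49%). With total counts as the library size, which moves all log2 folds up by 0.15, the split was 168 higher to 106 lower. With a library size that leaves out heat shock genes and the 50 genes with most reads, a shift of 0.10, it was 141 to 109. The calls are also given by the mean count of these libraries, which a response can itself raise or lower. Of the 288 genes that averaged 10000 counts or more, 4 were higher and 0 lower. These 4 were the heat shock genes Hsp83, Hsp70Aa, Hsp70Ab and Hsp70Ba. The Hsp70 copies among them, with 161, 145 and 54 counts in DMSO, reached this class through their 15 min reads. Of the 964 genes with a mean under 100 counts 37 were higher and 64 lower. Among the 161 genes just inside the limit, with means of 20 to 25 counts, 9 were higher and 12 lower, and among the 199 genes just outside it, with means of 15 to 20, the rule would have called 12 and 28.

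**Figure D1:**
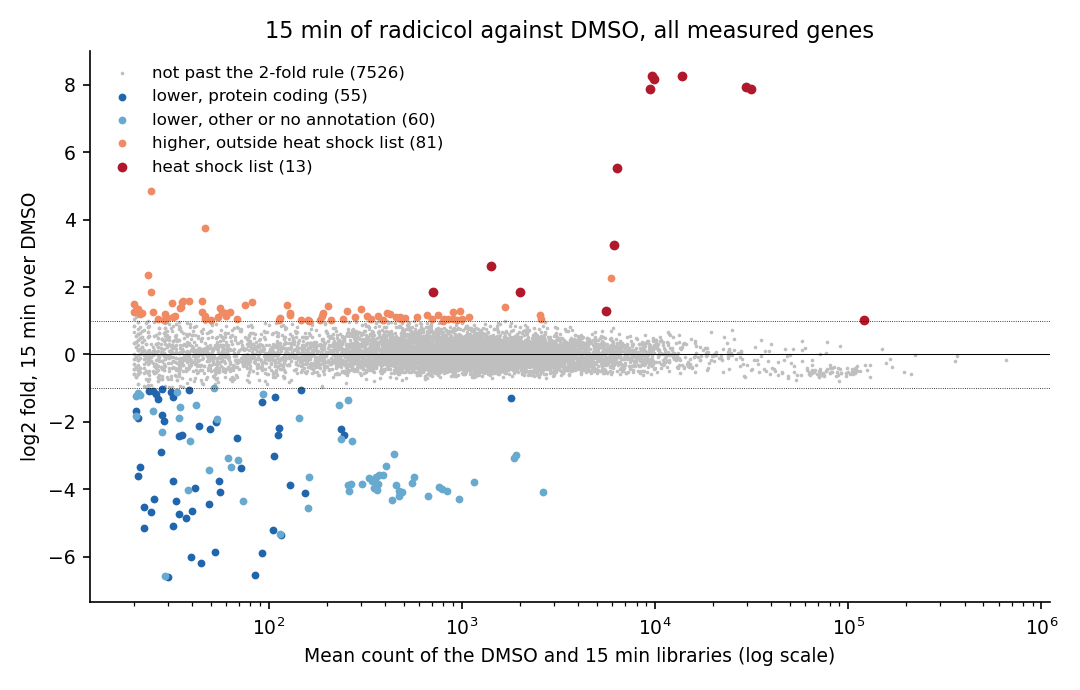
Each point is 1 of the 7735 measured genes, with the mean count of the DMSO and 15 min libraries on a log scale on the horizontal axis and the log2 fold of 15 min over DMSO on the vertical axis. Dotted lines mark 2-fold, and the 2 genes with 0 counts at 15 min are drawn at the bound that 3 counts give. Heat shock genes reach a log2 fold of 8.26 at high counts, while 43 of the 55 lower protein-coding genes have means under 100 counts.

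Heat shock genes stood farthest above DMSO. Of the 17 genes of the heat shock list found in the files, 13 were measured and all 13 were higher, with a median log2 fold of 5.53 beside -0.0037 over all measured genes. Together they held 0.314% of all gene reads in the DMSO library (95% Clopper-Pearson interval 0.311 to 0.316%) and 1.51% at 15 min (1.51 to 1.52%). The share was 3.02% at 30 min and 4.30% at 60 min. The list symbols Hsp67Bb and DnaJ-1 matched no ID, so these genes are not among the 17 and could be among the IDs without a symbol. Of the matched list, Hsp22 and CG4456 had 0 counts in all libraries. The small heat shock genes Hsp67Ba and Hsp67Bc had 0 counts in DMSO and only 3 and 2 at 15 min, too few to be measured, against 100 and 48 at 60 min.

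The Hsp70 genes encode the main stress-inducible refolding chaperone and exist as 6 nearly identical copies, so reads may be split between them and their sum is the safer value. The sum was 25.4 CPM in DMSO, 6508 at 15 min, 14534 at 30 min and 18216 at 60 min. The sum thus stood 256-fold above DMSO at 15 min (log2 8.0, 7.87 to 8.13). Single copies had 161 counts in DMSO and 62617 at 15 min for Hsp70Aa, 145 and 58951 for Hsp70Ab, and 54 and 27490 for Hsp70Ba. The copies Hsp70Bb, Hsp70Bbb and Hsp70Bc had 38, 41 and 48 counts in DMSO and 19324, 19752 and 18658 at 15 min. Their log2 folds lay between 7.87 and 8.26, and the intervals of all 6 overlap.

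Hsp68, the closest inducible relative of Hsp70, had 8.51 CPM in DMSO and 392 at 15 min, followed by 1177 and 1679 CPM. Its log2 fold at 15 min was 5.53 (5.30 to 5.76), below that of every Hsp70 copy with no overlap of the intervals.

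The small heat shock genes encode holdases that keep unfolded proteins from clumping. Hsp26 had 38.5, 362, 1659 and 3527 CPM in the DMSO, 15, 30 and 60 min libraries, a log2 fold of 3.23 (3.13 to 3.34) at 15 min. Hsp27 had 13.1, 80.9, 407 and 989.5 CPM, with 2.63 (2.44 to 2.83) at 15 min. Hsp23 had 29.8, 108, 623 and 1571 CPM, with 1.86 (1.73 to 1.99). The order Hsp26, Hsp27, Hsp23 in fold is larger than the counting error at 15 min. With the main scaling each of the 3 was still at least 2-fold higher at 60 min than at 30 min. The log2 folds of that step were 1.09, 1.28 and 1.33. Its counts come from neither the DMSO nor the 15 min library, but the scaling takes DMSO as reference. The library size without abundant genes moves folds by 0.05 at 30 min and -0.11 at 60 min, which takes Hsp26 below 2-fold.

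Of the other members, stv encodes a BAG-domain co-chaperone of Hsp70. It had 10.6, 37.99, 115 and 288 CPM, a log2 fold of 1.84 (1.63 to 2.06) at 15 min. The long noncoding RNA lncRNA:Hsromega, which forms nuclear speckles that collect RNA-binding proteins in stressed cells, had 115, 283, 561 and 880 CPM, with 1.30 (1.23 to 1.37). Hsp83 already had many reads before treatment, with 2895 CPM in DMSO and 5833, 9377 and 15340 CPM after it. Its log2 fold of 1.01 (0.997 to 1.02) at 15 min is the only one of the 13 at the edge of the rule. Once the relation between fold and exon length described below was removed, Hsp83 (0.86) and lncRNA:Hsromega (0.75) were no longer past the rule, and the other 11 members were.

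**Figure D2:**
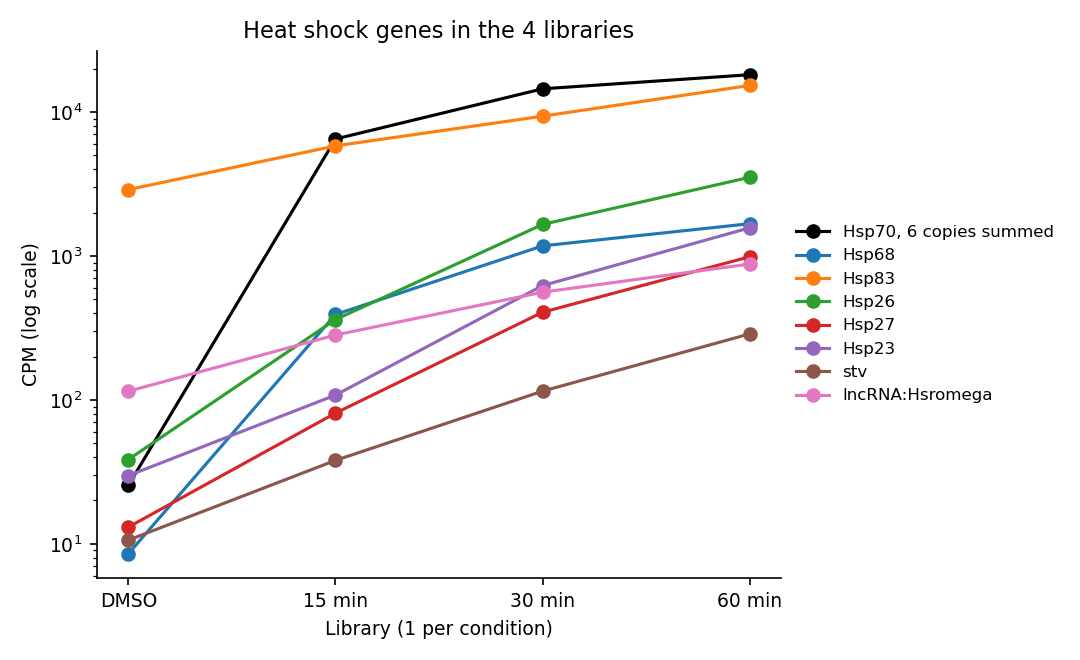
Scaled counts (CPM, log scale) of the heat shock genes in the DMSO, 15, 30 and 60 min libraries, 1 point per library with no replicate error, the 6 Hsp70 copies summed. The Hsp70 sum goes from 25.4 to 6508 CPM in the first interval, while Hsp83 goes from 2895 to 5833 CPM. Levels of different genes are not comparable because CPM is not per length.

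In reads gained, the Hsp70 copies led, followed by Hsp83. The measured genes that gained, 3829 in all, gained 57900 CPM together, of which the heat shock list accounted for 10469 CPM or 18.1%. The losses of measured genes summed to -157200 CPM. The normalised size of the 15 min library was 31774625, above its 28614983 gene reads, which makes gains smaller and losses larger. The 18.1% therefore depends on the scaling. Of the gain of the list 61.9% fell to the Hsp70 copies and 28.1% to Hsp83. Outside the list the largest gains belonged to FBgn0001219, which the name tables pair with no symbol, to the cytoplasmic actin gene Act5C and to the collagen gene Col4a1. Their gains were 719, 675 and 612 CPM, their log2 folds were 0.35 (0.34 to 0.37), 0.17 (0.16 to 0.18) and 0.41 (0.39 to 0.43), and none was called. The values of Act5C and Col4a1 with the length relation removed were 0.0098 and 0.014.

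The heat shock genes differ from the rest in structure. Of the 13 measured members 10 (76.9%) consist of 1 exon in the annotation, beside 9.57% of the measured genes with a known exon length. Among genes outside the list that were higher at 15 min the share was 10.2%. Genes next to heat shock loci were followed as well. Of the 16 nearest genes outside the list, 14 were measured, 1 was higher, 1 was lower and 12 were not called, with log2 folds from -0.63 for CG14966 to 0.29 for Abp1. Of all measured genes 1.22% were higher and 1.49% lower. The higher one was the noncoding lncRNA:alphagamma-element:CR32865, a transcript known to lie among Hsp70 copies behind an Hsp70-like promoter. It had 4 counts in DMSO and 89, 221 and 437 counts at 15, 30 and 60 min, and a log2 fold of 3.75 (2.34 to 5.65) at 15 min. It reached the limit for measured genes only through its 15 min reads. The lower one was the octopamine receptor gene Octbeta3R, with 27 counts in DMSO and 14, 17 and 21 after radicicol, a log2 fold of -1.68 (-2.72 to -0.70).

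Most constitutive chaperones that could be matched stood near their DMSO level. Of 30 measured chaperones and Hsp90 co-chaperones 1 was higher and 0 were lower, with a median log2 fold of 0.09. Over all measured genes 1.22% were higher and 1.49% lower. Several symbols of this list matched no ID, among them Hsc70-4 and Hop. Such genes could be measured under another symbol or among the IDs without a symbol. The name tables do not show whether FBgn0001219, given above for its gain in reads, is one of them. The higher one was the Hsp70 relative Hsc70-2, with 1 count in DMSO and 48, 114 and 213 in the radicicol libraries, a log2 fold of 4.85 (2.31 to 10.19) at 15 min. Hsc70-2 reached the limit for measured genes only through its 15 min reads. Hsp110, a nucleotide exchange factor of Hsp70, had 0.40 (0.36 to 0.45), and the mitochondrial Hsc70-5 had 0.27 (0.23 to 0.31). The Hsp90 co-chaperone gene Cdc37, which delivers kinases, had -0.25 (-0.30 to -0.19), and p23 had -0.07 (-0.11 to -0.04). The subunits of the CCT folding ring that could be measured, CCT1 to CCT7, lay between -0.16 and 0.18. The 7 measured kinases and receptors of the Hsp90 client list had a median of 0.42 (0.12 with the length relation removed) and 0 were called. Of 18 measured genes that answer unfolded proteins in the ER, 0 were called, with a median of 0.13.

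The transcripts of the regulators themselves were not called. Hsf, which encodes heat shock factor, had 50.1 CPM in DMSO and 57.9 at 15 min (log2 0.21, 0.10 to 0.32), and the GAGA factor gene Trl had 29.2 and 32.2 CPM (0.14, -0.01 to 0.29), with 77.8% of its exon length shared with another gene. Of 20 measured genes of pausing and elongation 0 were called, which is near the share over all measured genes, 1.22% higher and 1.49% lower. Their median was 0.21, and 0.0055 with the length relation removed. The highest was CycT, the cyclin of P-TEFb, with 191 counts in DMSO and 626 at 15 min, a log2 fold of 0.98 (0.75 to 1.22). Its kinase Cdk9 had -0.13 (-0.27 to 0.01), and Hexim, which inhibits P-TEFb, had -0.42 (-0.56 to -0.28). With total counts, DESeq2 size factors or the library size without abundant genes 1 of the 20 was past the rule.

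Outside the matched heat shock list, 81 genes were higher at 15 min, most of them by little more than 2-fold. Their median log2 fold was 1.16, 55 were annotated as protein coding and 22 had no symbol. Heat shock genes whose symbol matched no ID could be among these 22. Some of the 81 had few counts in DMSO and reached the limit for measured genes through their 15 min reads. Their median level was 2.77 CPM in DMSO, 6.39 at 15 min, 7.91 at 30 min and 25.5 at 60 min. The 59 with a known exon length had a median length of 4983 bases beside 2029 bases over all measured genes with a length. The count moves with the settings, since 10 of the 81 had the whole interval past 2-fold and 21 of the 59 with a length were past the rule with the length relation removed.

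The 20 symbol-paired genes whose interval end lay farthest above 0 are described here in an order of known roles, which no count or test supports as groups. Hrb27C, a nuclear RNA-binding protein of the hnRNP A family, had 32.6 CPM in DMSO and 85.9, 101 and 484 CPM at 15, 30 and 60 min, a log2 fold of 1.40 (1.27 to 1.53) at 15 min. DCP2, the enzyme that removes the cap of mRNAs, had 5.95 CPM and then 15.2, 17.6 and 96.8 CPM, with 1.35 (1.05 to 1.66) at 15 min. The neuronal RNA-binding protein gene elav had 28 counts in DMSO and 135 at 15 min, with 1.54 (0.94 to 2.18), and 34.2% of its exon length is shared with another gene. All 3 differed little between 15 and 30 min and stood more than 2-fold higher at 60 min than at 30 min.

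The actin regulator gene ena had 20.1 CPM in DMSO and 49.1 at 15 min (log2 1.29, 1.13 to 1.45). The log2 fold was 1.16 (0.98 to 1.35) for pigs, whose product links actin and microtubules, 1.20 (0.96 to 1.45) for the dynein light intermediate chain gene Dlic, and 1.09 (0.87 to 1.31) for the p21-activated kinase gene Pak3. For ex, an upstream component of the Hippo pathway, it was 1.05 (0.90 to 1.21).

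The phospholipid flippase gene ATP8B had 55.8 CPM in DMSO and 125 at 15 min (log2 1.17, 1.07 to 1.26). Tnpo, an import receptor of the nucleus, had 1.23 (0.98 to 1.48), the mitochondrial carrier gene SCaMC 1.06 (0.89 to 1.23), and GlcT, which makes glucosylceramide, 1.10 (0.88 to 1.33). The catalytic subunit gene of protein kinase A, Pka-C1, had 1.13 (0.87 to 1.39), and ham, a zinc-finger transcription factor gene, had 1.25 (1.09 to 1.43). The genes l(3)L1231, CG5521 and mtgo had 1.48 (0.999 to 1.98), 1.29 (0.97 to 1.62) and 1.04 (0.87 to 1.20). Of these genes with a length, l(3)L1231 and elav stayed past 2-fold with the length relation removed, at 1.08 and 1.06, and the others named in these groups lay between 0.56 and 0.96. Of the IDs with no symbol, FBgn0015657 had 68.0 CPM in DMSO and 328, 576 and 838 CPM after radicicol, a log2 fold of 2.27 (2.19 to 2.36), and FBgn0051048 had 1.44 (1.07 to 1.83). The name tables do not show whether either is a heat shock gene that the list failed to match.

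Fold and transcript length went together across the transcriptome. In the 1027 measured genes with under 1 kb of exon the median log2 fold of 15 min over DMSO was -0.35, and in the 257 genes of 8 kb or more it was 0.43. From 15 to 30 min, a step that shares the 15 min library, the same medians were -0.02 and 0.07. From 30 to 60 min, a step whose counts come from neither library of the main comparison though its scaling takes DMSO as reference, they were -0.51 and 1.05. The part of exon length in the calls is given beside them as the value with this relation removed by a smooth curve.

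**Figure D3:**
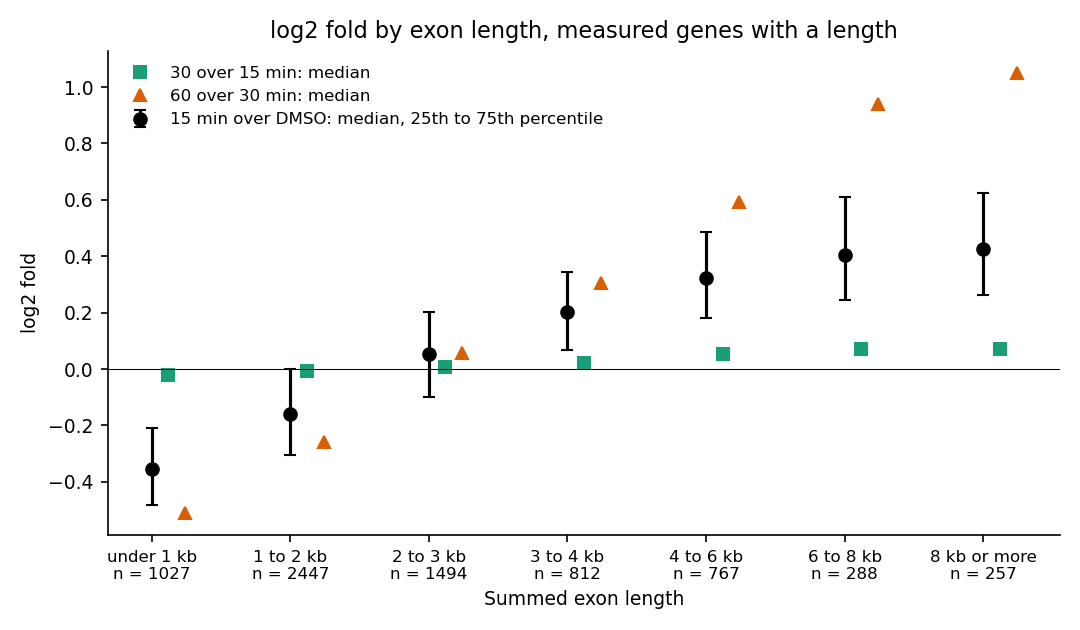
Median log2 fold in classes of summed exon length (number of measured genes under each class) for 15 min over DMSO (circles, bars from the 25th to the 75th percentile), 30 over 15 min (squares) and 60 over 30 min (triangles). The circles go from -0.35 under 1 kb to 0.43 at 8 kb or more, the squares from -0.02 to 0.07 and the triangles from -0.51 to 1.05.

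The steps after 15 min were counted by the same rule. From 30 to 60 min 703 of the 7735 measured genes were higher (9.09%) and 74 were lower (0.957%). Of the 81 genes 60 (74.1%) were higher in that step and 0 were lower, with a median log2 fold of 1.75. Among genes with at least 4 kb of exon, 29 of the 34 that belong to the 81 (85.3%) were higher from 30 to 60 min, against 400 of 1277 (31.3%) that were not higher at 15 min. Of the heat shock list 4 of 13 (30.8%) were higher in that step, with a median log2 fold of 0.51. From 15 to 30 min the heat shock list had a median of 1.19 and the 81 genes one of 0.21.

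On each signalling list at most 1 gene was called in each direction, while 1.22% of all measured genes were higher and 1.49% lower. Of 12 measured EGFR and Ras/MAPK genes 1 was higher and 1 was lower, with a median of 0.63 (0.40 with the length relation removed). The higher gene was rho, a protease that releases EGF receptor ligands, with 256 counts in DMSO and 915, 2256 and 6986 at 15, 30 and 60 min, a log2 fold of 1.11 (0.91 to 1.31) that was 0.95 with the length relation removed. The lower gene was vn, which encodes a neuregulin-like ligand of the same receptor, with 63 counts in DMSO and 24, 25 and 51 after radicicol, a log2 fold of -2.12 (-2.87 to -1.42). The ETS repressor gene aop had 0.85 (0.73 to 0.98) and the phosphatase gene Mkp3 0.78 (0.66 to 0.91), both short of the rule. With total counts as the library size 3 of the 12 were higher.

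Of 15 measured immediate-early and JNK-responsive genes 0 were higher and 1 was lower, with a median of 0.19. The lower gene, Atf3, encodes a bZIP transcription factor and had 347 counts in DMSO and 125, 107 and 172 after radicicol, a log2 fold of -2.20 (-2.51 to -1.90). The AP-1 genes kay and Jra, which encode Fos and Jun, had 0.53 (0.49 to 0.57) and 0.14 (0.06 to 0.22). The JNK phosphatase gene puc had 0.46 (0.35 to 0.56), and Ets21C had 0.71 (0.23 to 1.20). The 8 measured ecdysone response genes had a median of 0.45, 0.07 with the length relation removed, and the 8 JAK/STAT genes one of 0.29, and 0 of either list were called. The 14 measured mRNA decay factors that the list matched had a median of 0.34, which became -0.05 with the length relation removed, and 0 were called. The decapping genes DCP1 and DCP2 belong to this group but were not matched, because the list spells them in other capitals. Of these DCP2 was higher, as given above, and DCP1 had a log2 fold of -0.36. The medians of the remaining lists, most within 0.5 of 0, are in the plot of gene lists.

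**Figure D4:**
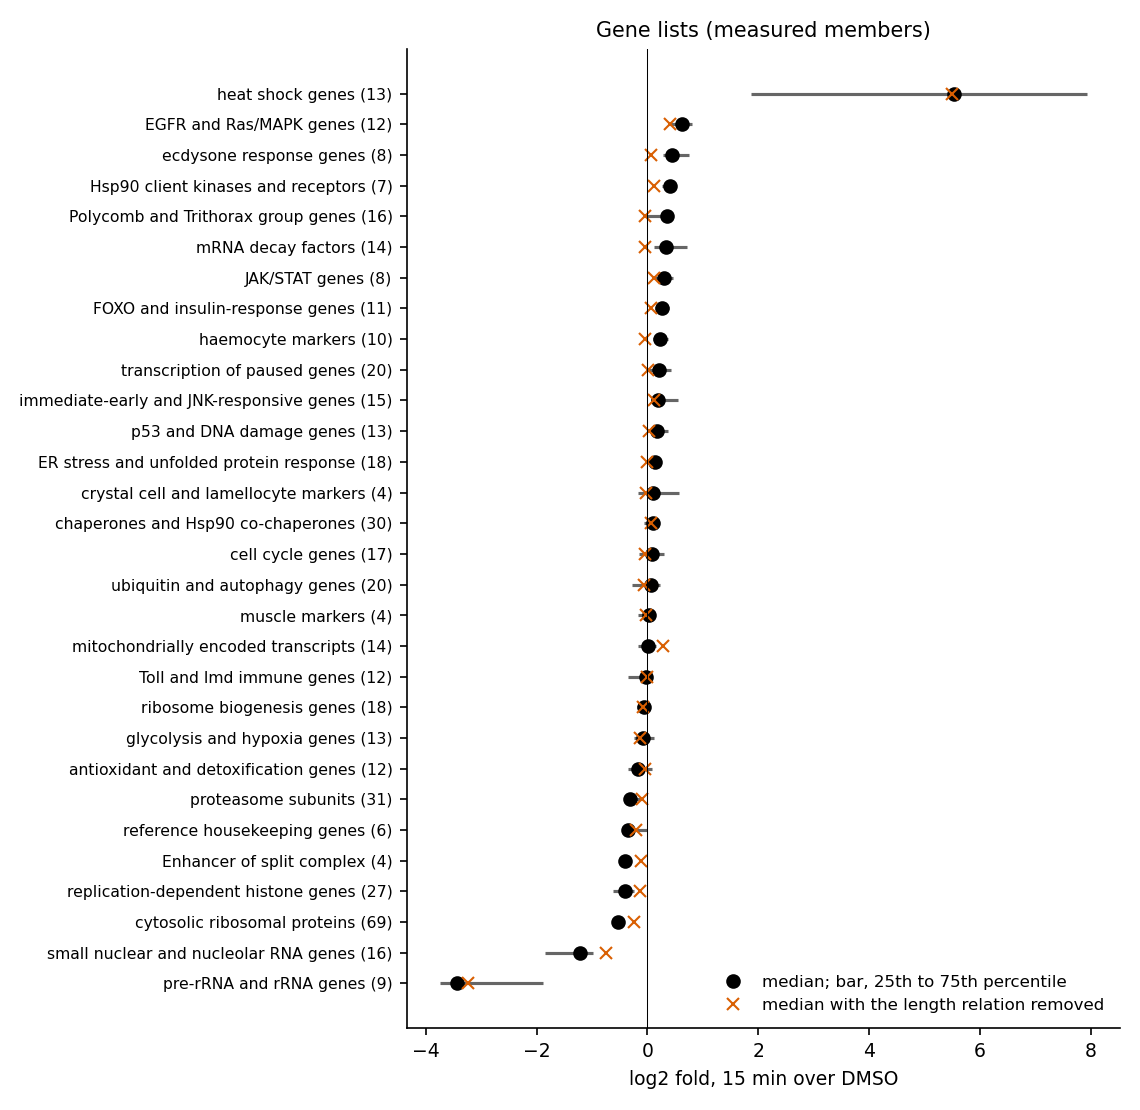
Median log2 fold of 15 min over DMSO for each gene list with at least 3 measured members (number measured in parentheses), with bars from the 25th to the 75th percentile over genes and crosses for the median with the length relation removed. The heat shock list stands at 5.53, the ribosomal proteins at -0.52, the small nuclear and nucleolar RNA genes at -1.22 and the rRNA genes at -3.44.

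Ribosomal protein transcripts lay below their DMSO level by less than the rule asks. Of 69 measured cytosolic ribosomal protein genes 0 were called, but 68 had an interval below 0, which held for 31.9% of all measured genes, and their median log2 fold was -0.52. Their summed level was 272913 CPM in DMSO and 193685 CPM at 15 min. Their median with the length relation removed was -0.24. Among the largest losses in CPM were those of mt:lrRNA, sta, RpLP2, RpL5, RpL17, RpS15Aa, FBgn0002607, RpL32 and RpLP1, with log2 folds from -0.78 (-0.80 to -0.77) for RpL17 to -0.18 (-0.18 to -0.17) for the mitochondrial ribosomal RNA mt:lrRNA. The 31 proteasome subunit genes had a median of -0.31, which was -0.10 with the length relation removed, and 27 had an interval below 0.

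The lower genes had few reads and were of mixed kinds. Of the 115, 55 were protein coding, which is 0.788% of the 6980 measured protein-coding genes, 36 had no annotation, and the others were structural RNAs and pseudogenes. The 55 had a median level of 3.65 CPM in DMSO, 0.504 at 15 min, 0.458 at 30 min and 0.477 at 60 min. Of these 55, 43 had a mean under 100 counts. At 15 min 22 of the 55 had under 10 counts, so these reached the limit for measured genes through their DMSO reads. All of these folds are set against the same DMSO library, and the step from 30 to 60 min, which does not use it, had a median log2 fold of 0.25 over the 55, with 7 higher and 1 lower.

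Chromosomes differed in their share of these 55. The X chromosome carries 33 of them (60.0%), beside 1234 of the 6980 measured protein-coding genes (17.7%). Of the measured X genes 2.67% were lower, against 0.289 to 0.470% of those on the arms of chromosomes 2 and 3. Among genes with a mean under 100 counts, 26 of 43 lower genes (60.5%) lay on the X chromosome, which holds 163 of the 835 such genes (19.5%). The median log2 fold of all measured X genes was -0.0146, beside values from -0.0281 to 0.0277 on the arms of chromosomes 2 and 3. Of the 67 higher protein-coding genes 8 lay on it. The chromosome pattern was noticed in the data and is a description without a test.

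**Figure D5:**
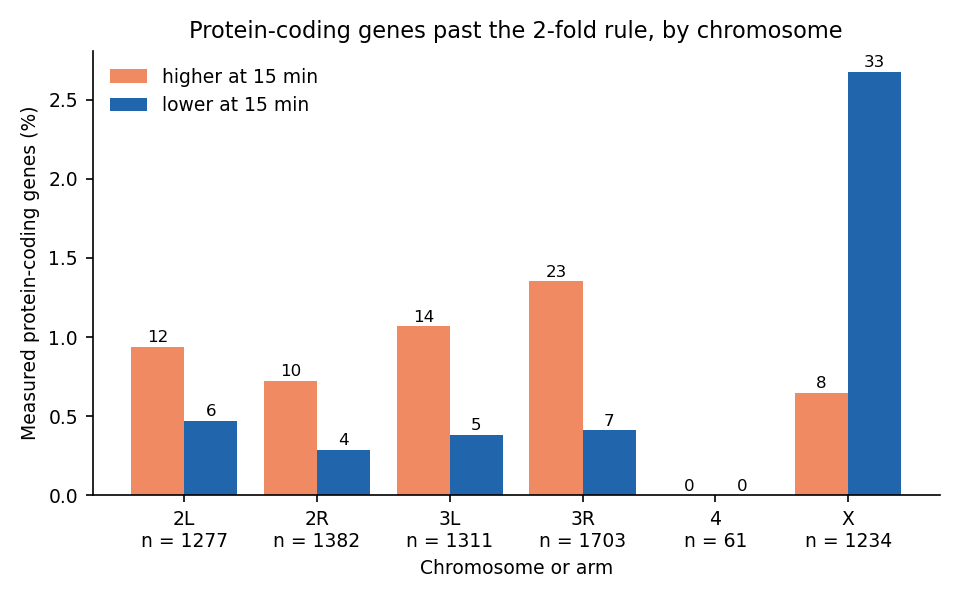
Percent of the measured protein-coding genes of each chromosome or arm (number measured under each name) that were higher or lower at 15 min by the 2-fold rule, with the number of genes above each bar. On the X chromosome 33 genes (2.67%) were lower, beside 4 to 7 genes on each arm of chromosomes 2 and 3.

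The 33 lower X genes summed to 279 CPM in DMSO and 65.8, 53.8 and 87.0 CPM at 15, 30 and 60 min. The 22 on other chromosomes summed to 107 CPM in DMSO and 20.4, 24.5 and 25.6 CPM. All 33 were past the rule with DESeq2 size factors, and 32 with total counts, without the abundant genes or with the length relation removed.

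The known roles of the lower X genes are given as background, and no list of such roles was counted among them. Counts are given as deposited, and the radicicol libraries are the deeper ones. Frq1, which encodes a calcium sensor of synaptic terminals, had 169 counts in DMSO and 0, 1 and 0 at 15, 30 and 60 min, at least 93.5-fold lower at 15 min with 3 counts set in that library. The voltage-gated potassium channel gene Sh had 43 counts in DMSO and 2, 4 and 2 after radicicol, a log2 fold of -5.16 (-8.25 to -3.22). The immunoglobulin-domain surface protein gene dpr8 had 61 counts and then 3, 3 and 5.

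The proctolin receptor gene Proc-R had 64 counts in DMSO and 4, 0 and 4 after radicicol. The transcription factor gene HLH4C, of the bHLH family, had 221 counts in DMSO and 9, 4 and 0 after radicicol (log2 -5.35, -6.50 to -4.40 at 15 min), and zld, whose product opens the zygotic genome in the early embryo, had 91 and then 7, 5 and 10 (-4.43, -5.79 to -3.33).

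The cuticle protein gene TwdlY had 201 counts in DMSO and 9, 8 and 4 after radicicol, CG3526 had 87 and then 2, 0 and 4, CG10597 had 59 and then 1, 2 and 0, and CG17764 had 282 and then 27, 9 and 8. The gene with most reads among the 33, named after its values were seen, was Adar, which edits adenosines in neuronal mRNAs, with 2145 counts in DMSO and 1452, 1260 and 1827 after radicicol, a log2 fold of -1.29 (-1.39 to -1.20).

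The 22 lower genes on the other chromosomes had a median log2 fold of -2.25, beside -3.62 for the 33 on the X chromosome. Those named here are among the 20 symbol-paired genes whose interval end lay farthest below 0, and do not stand for all 22. CG31294 had 105 counts in DMSO and 0, 2 and 0 after radicicol, at least 58.1-fold lower at 15 min with 3 counts set in that library. The surface protein gene dpr1 had 178 counts and then 5, 3 and 5, with a log2 fold of -5.88 (-7.52 to -4.63) at 15 min. ChAT, the enzyme that makes acetylcholine, had 70 counts and then 4, 3 and 14, with 15.1% of its exon length shared with another gene.

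CG12078 had 77 counts in DMSO and 2, 3 and 4 after radicicol, CG31221 had 75 and then 5, 7 and 1, and CG10508 had 231 and then 26, 16 and 15. In each of these genes all 3 radicicol libraries were below the DMSO library. The genes were picked for standing far below that same library, so this is no separate support for a difference. In the neuron marker list 1 of the 2 measured genes was higher and 0 were lower. Of its members, elav was higher as given above, and brp had 16 counts in DMSO and 46 at 15 min, a log2 fold of 0.79 (-0.05 to 1.71). The markers futsch, nSyb and Rdl had 7, 3 and 2 counts in DMSO and 21, 6 and 0 at 15 min, too few to be measured.

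Structural RNAs, which are not polyadenylated when mature, made up a further group of lower transcripts. The 2 genes of 7SL RNA, the RNA of the signal recognition particle, had 163 CPM each in DMSO and 19.3 and 20.6 CPM at 15 min. Their log2 folds were -3.08 (-3.21 to -2.95) for 7SLRNA:CR32864 and -2.99 (-3.12 to -2.87) for 7SLRNA:CR42652, and near-identical copies may share reads. The RNAs of the processing enzymes RNase MRP and RNase P had -1.51 (-1.80 to -1.24) for RNaseMRP:RNA and -1.18 (-1.62 to -0.75) for RNaseP:RNA. These 4 together had 347 CPM in DMSO and 47.6, 31.2 and 22.5 CPM at 15, 30 and 60 min, so every radicicol library was below the DMSO library.

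Of 16 measured small nuclear and nucleolar RNA genes 12 were lower, beside 1.49% of all measured genes. Their median was -1.22 (-0.74 with the length relation removed, when 7 were lower). The largest difference among them was that of the U3 gene snoRNA:U3:54Aa, whose RNA guides cleavage of the ribosomal precursor, with 109 counts in DMSO and 18 at 15 min, a log2 fold of -3.33 (-4.14 to -2.60). Its near-identical copy snoRNA:U3:54Ab had 42 and 14 counts. All 8 measured spliceosomal RNA genes were lower, from -1.91 (-2.55 to -1.31) for snRNA:U2:34ABa to -1.01 (-1.60 to -0.43) for snRNA:U12, and the U2 copies may share reads.

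Of 9 measured rRNA genes and rRNA pseudogenes 8 were lower, with a median of -3.44. The pseudogene 18SrRNA-Psi:CR41602 had 4772 counts in DMSO and 465, 159 and 149 after radicicol, a log2 fold of -4.09 (-4.23 to -3.95), 28SrRNA-Psi:CR40596 had 853 and then 85, 30 and 18, and 18SrRNA:CR41548 had 608 and then 75, 26 and 36. Such copies share sequence with the rDNA repeats, and how reads with several alignments were handled is not stated. The remaining gene, mt:lrRNA, had -0.18, while the small mitochondrial ribosomal RNA mt:srRNA was lower with -1.35 (-1.61 to -1.09). Of the 36 lower IDs without annotation, 31 come from a run of ID numbers shared with the rRNA pseudogenes, a block picked out after its values were seen, whose 36 measured IDs together had 1355 CPM in DMSO and 192, 147 and 142 CPM after radicicol. The summed levels of the structural RNA groups given above and the share of reads not aligned were both highest in the DMSO library. The part of either in the lower calls was not tested.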

How the data were processed

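Poly(A) RNA libraries of S2 cells, 1 per condition, were analysed from the raw counts per FlyBase gene that the authors deposited, in the unit counts. Per the submitters' processing notes Bowtie, HTSeq and the genome build dm3 were used. Not given in the sources used here were tool versions, options, strandedness and gene models. The 5 entries of each file that name no gene, beside 14869 gene IDs, stayed out of library sizes. Reads in no gene were 14.7 to 16.4% of the aligned reads and ambiguous ones 1.13 to 1.38%, and reads with several alignments were listed at 0. No column was left unused.

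Library sizes used TMM (edgeR 4.0.16 in R 4.3.3, DMSO as reference, measured genes), and CPM refers to these. Folds carry exact Clopper-Pearson intervals (SciPy 1.17.1) at 95%, which cover counting error only, since reads carry no molecular identifiers and copies of 1 molecule count repeatedly. With 1 library per condition no p-value was computed. A 0 was set to 3 counts in that library for bounds. The size rule was tried on simulated counts that held counting error only, which cannot show how it fares with variation between libraries. Of the IDs, 13523 were paired with symbols by a gene name table and 9 by RefSeq synonyms. Exon lengths and biotypes came from a later annotation, so no coordinates are given, and 91.7% of measured genes had a length. The length relation was removed with a lowess curve (fraction 0.3).

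The comparison, the 33 gene lists (76 of their symbols matched no ID, a few of them, such as that of DCP2, only through other capitals) and the rules were chosen with earlier results of these data known. The rule for genes to name took all measured heat shock genes, list members past the rule, the 20 symbol-paired genes past the rule whose interval end lay farthest from 0 in each direction, the 10 largest CPM gains and losses, Hsf and Trl, and at most 2 IDs without a symbol in each direction. Not every gene that this rule takes is given: small structural RNA genes stand as counts and ranges, and a gene is not reported here. Other genes named are list members or neighbours given as values. Alternatives were other library sizes, count filters and fold limits, removal of the length relation, whole intervals past 2-fold and protein-coding genes only. Genes with an exon length only and leaving out the X chromosome were added after seeing the data.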

Additional observations from a re-analysis of the deposited data

How the results depend on the processing

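The heat shock median of 5.53 and the Hsp70 log2 fold of 8.0 stayed above 0 under each alternative run for them, and the 94 higher and 115 lower genes varied in number. With total counts as library size 168 genes were higher and the Hsp70 value was 8.15. With the length relation removed 43 were higher and 71 lower, beside 72 and 79 of the same genes before it. A mean of at least 100 counts gave 57 higher and 51 lower. With no filter beyond 1 count 335 were lower and the heat shock median was 3.23, and with the mean taken over 4 libraries that median was 4.38. In both, members with 0 counts in DMSO enter (Hsp67Ba, and without a filter also Hsp67Bc) with 3 counts set there, so these medians hold bounds and not folds of those members. A 1.5-fold rule gave 457 higher and 254 lower, a 3-fold rule 18 higher, and whole intervals past 2-fold 22 higher. Among protein-coding genes 55 were lower, and without the X chromosome, an alternative added after seeing the data, 76 were.

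No paired analysis was possible because each condition has 1 library, and for the same reason leaving out a replicate was not run. Every difference from DMSO rests on 1 DMSO library with the lowest depth. Depth limits genes with few counts, so that for members such as Hsp67Ba and Hsp67Bc a difference was not detectable at 15 min.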

Other observations

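The gene lists in this paragraph held no called gene at 15 min, and none of the values given here is a call. Over all measured genes 1.22% were higher and 1.49% lower, so few calls would fall in lists of this size. In the list of 13 glycolysis and hypoxia genes, whose median log2 fold was -0.07, scyl and chrb, which encode inhibitors of TOR signalling of the REDD family, had 0.81 and 0.72. In the list of 17 cell cycle genes (median 0.09) the values went from -0.51 for the mitotic kinase gene aurB to 0.61 for the transcription factor gene E2f1. In the list of 20 ubiquitin and autophagy genes (median 0.06) the kinase gene Atg1 had 0.62 and the polyubiquitin gene Ubi-p63E 0.30. Of 12 Toll and Imd immune genes, with a median of -0.03, the NF-kB gene Dif had 0.65 and the peptidoglycan receptor gene PGRP-SD had -0.43. Of 16 Polycomb and Trithorax group genes, with a median of 0.35 that was -0.05 with the length relation removed, Scm had 0.63 and Snr1 had -0.37. The 27 measured replication-dependent histone genes, many of them near-identical copies, had a median of -0.41, which was -0.14 with the length relation removed.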
